A study of Mus musculus with 12 samples.

Results

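The E2F transcription factors E2f1, E2f2, E2f3, E2f4, E2f5, E2f6 and E2f8 and the retinoblastoma genes Rb1, Rbl1 and Rbl2 were followed across 12 RNA-Seq libraries of mouse somatosensory cortex. These 10 genes were taken by symbol from the 24452 symbols of the deposited count files, and they hold 17 of the 35840 RefSeq transcripts listed there. The counts of a gene's transcripts were summed. The mice were male C57BL/6 pups, either wildtype (WT) or homozygous for the targeted allele Trp53tm1Tyj (p53 KO), a germline deletion that removes p53 from every cell, and both genotypes came from matings of heterozygotes. Ethanol or saline was injected intraperitoneally on postnatal day 7, and the cortex was taken 8 hr after the last injection. WT and KO pups each received saline or ethanol, which gave 4 groups of 3 libraries, each from the RNA of a separate pup.

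The E2F proteins bind DNA as dimers with a DP partner and switch on, or hold silent, the genes that carry a cell from G1 into S phase. The retinoblastoma protein and its relatives p107 (Rbl1) and p130 (Rbl2) are the pocket proteins that bind E2Fs and repress those genes until cyclin-dependent kinases phosphorylate them. p53 acts on this switch through the CDK inhibitor p21 (Cdkn1a). In cortex at this age nearly all neurons have left the cell cycle, while glia still divide.

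Rbl2 had the largest differences of the 10 genes. Its summed transcripts were about 3 times as high in ethanol-treated as in saline-treated WT cortex, and about as high in saline-treated KO cortex, whereas ethanol was not accompanied by such a difference within KO mice. These differences passed an unadjusted p of 0.05 and the adjusted level of 0.30 that the study used, and did not pass an adjusted p of 0.05. The 0.30 level was missed in 6 of 21 alternative fits for ethanol in WT mice and in 5 of 21 for genotype under saline. No other gene of the 10 passed an unadjusted p of 0.05 in a comparison of a pair of groups. Such differences were common in this series, and 1 of 10 genes was no more than the share of all genes (18.3% for ethanol in WT mice, 19.6% for genotype under saline).

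The libraries differed in depth. Totals ran from 719735 to 17066392 counts, and the 2 lowest were KO ethanol library 12 and WT saline library 3 (1953154 counts), whose titles alone start with L instead of P, a letter that the labels do not explain. KO ethanol library 12 held only 2 counts of Rbl2 and none of E2f2 or E2f8, so its values are given separately where they matter. Trp53 was not lower in the libraries labelled KO, at 11.1 to 28.7 CPM (counts scaled to library size, with TMM factors) against 3.67 to 26.2 in WT libraries. The sum over whole transcripts includes exons that this allele leaves in place, so it did not check the genotype. The TMM factor of WT saline library 1 was 0.564, the lowest of the 12, and the others ran from 0.832 to 1.23. Cdkn1a was at 22.3 to 56.8 CPM in KO and 20.2 to 106 CPM in WT libraries. Markers of neurons (Rbfox3, Snap25) and astrocytes (Aqp4, Slc1a3) were counted in all 12 libraries. So were 4 of 5 markers of striatal neurons (Drd2 had no count in 2 libraries), while the 5 choroid plexus markers each had no count in 1 to 3 libraries.

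Start sites are shown first, because Rbl2 and E2f3 are the genes whose transcripts differed most between groups and Rbl1 is the closest relative of Rbl2. RefSeq promoter windows (GRCm38.p6, the assembly of mm10), from 250 bases before to 50 bases after a start, were found for 7 of the 10 genes, in 9 windows. There was no entry for E2f4, E2f5 and Rb1. The E2f1 window lay at the start of NM_001291105, and none was found at that of NM_007891 (base 154569892). The E2f8 window lay at a start at base 48881596, while the transcript counted here starts at 48881041. Each window was searched on both strands for TTTCCCGC, TTTCGCGC, TTTGCCGC and TTTGGCGC, the letters of the classical E2F site, and for GGCGGGAA, which can overlap the reverse complement of TTTCCCGC. Capitals mark matches. Rbl2 starts on the plus strand of chromosome 8 (window chr8:91069807-91070106) and held no match, and Rbl1 starts on the minus strand of chromosome 2 (chr2:157204485-157204784) and held TTTCGCGC from -18 to -11. E2f3, on the minus strand of chromosome 13, has an upstream start (chr13:29986014-29986313) and, 1672 bases downstream, a start within the gene (chr13:29984342-29984641).
Rbl2 start: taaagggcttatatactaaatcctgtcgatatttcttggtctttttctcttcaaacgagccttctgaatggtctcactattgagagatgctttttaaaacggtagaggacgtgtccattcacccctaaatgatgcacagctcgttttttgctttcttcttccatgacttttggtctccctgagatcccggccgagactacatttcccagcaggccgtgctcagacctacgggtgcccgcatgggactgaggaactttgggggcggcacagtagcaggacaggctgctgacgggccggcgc
Rbl1 start: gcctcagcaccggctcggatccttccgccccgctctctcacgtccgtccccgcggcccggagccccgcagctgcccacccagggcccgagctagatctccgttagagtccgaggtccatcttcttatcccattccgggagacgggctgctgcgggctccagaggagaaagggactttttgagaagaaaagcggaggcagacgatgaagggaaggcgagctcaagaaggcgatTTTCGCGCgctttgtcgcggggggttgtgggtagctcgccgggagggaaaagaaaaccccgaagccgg
E2f3 upstream start: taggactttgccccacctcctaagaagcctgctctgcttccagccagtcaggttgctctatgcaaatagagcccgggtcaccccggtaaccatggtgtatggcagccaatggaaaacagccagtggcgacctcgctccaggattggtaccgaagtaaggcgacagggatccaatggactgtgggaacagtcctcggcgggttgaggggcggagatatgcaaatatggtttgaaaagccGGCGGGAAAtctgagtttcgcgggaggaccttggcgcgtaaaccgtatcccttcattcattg
E2f3 downstream start: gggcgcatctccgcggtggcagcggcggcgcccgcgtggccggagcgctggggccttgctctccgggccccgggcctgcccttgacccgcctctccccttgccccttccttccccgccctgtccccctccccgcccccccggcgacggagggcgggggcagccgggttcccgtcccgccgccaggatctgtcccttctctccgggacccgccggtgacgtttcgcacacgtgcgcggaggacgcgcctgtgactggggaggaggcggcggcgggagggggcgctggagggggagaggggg

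The upstream E2f3 window held GGCGGGAA from -12 to -5 and, overlapping it on the other strand, TTTCCCGC from -11 to -4, and the downstream window held none of these letters. E2f2 held TTTGGCGC from 40 to 47 of its upstream start. In all, 3 of the 9 windows held a match, against 3.89% of the 32851 mouse windows. A match is a run of letters and no measurement of binding.

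The level of each gene per length was read from the deposited RPKM values, summed per gene. E2f5 was highest, with a median of 10.3 RPKM over the 12 libraries (6.27 to 18.1), followed by Rb1 at 8.1 (5.06 to 13.6) and E2f4 at 7.58 (3.82 to 15.3). E2f6 had a median of 5.86, E2f3 of 4.63, Rbl2 of 4.62 and E2f1 of 3.58 RPKM. Rbl1 at 0.83, E2f2 at 0.339 and E2f8 at 0.286 RPKM, genes typical of cycling cells, were the lowest. These neighbours overlapped, except that E2f1 was above Rbl1 in all 12 libraries. E2f5 was above Rb1 in 8 libraries and E2f3 above Rbl2 in 6, so their order differed by less than the spread between libraries.

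**Figure D1:**
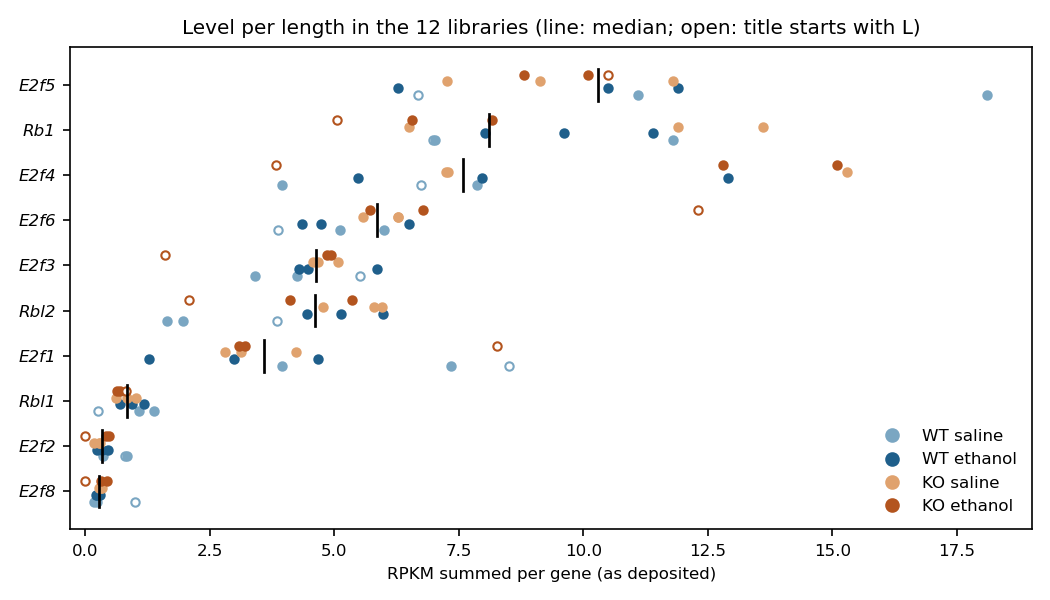
RPKM summed per gene in each of the 12 libraries, by gene (rows, ordered by median), with groups in colour, libraries whose title starts with L as open circles and the median as a line. E2f5, Rb1 and E2f4 have medians between 7.58 and 10.3, and Rbl1, E2f2 and E2f8 lie below 1.4 in every library.

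The next values are normalized CPM, which compare libraries within a gene. Rbl2 encodes p130, the pocket protein that predominates in resting cells and joins E2F4 or E2F5 in the DREAM complex. In WT saline libraries 1, 3 and 13 it was at 6.61, 17.0 and 8.47 CPM. WT ethanol libraries 4, 5 and 14 were at 34.7, 24.6 and 34.1 CPM, and KO saline libraries 7, 8 and 9 at 28.3, 32.9 and 35.7 CPM. Thus every WT saline library was below every WT ethanol and every KO saline library. KO ethanol libraries 10, 12 and 18 were at 33.0, 3.34 and 26.4 CPM, where the middle value rests on 2 counts and the others lay within the range of the WT ethanol and KO saline libraries.

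**Figure D2:**
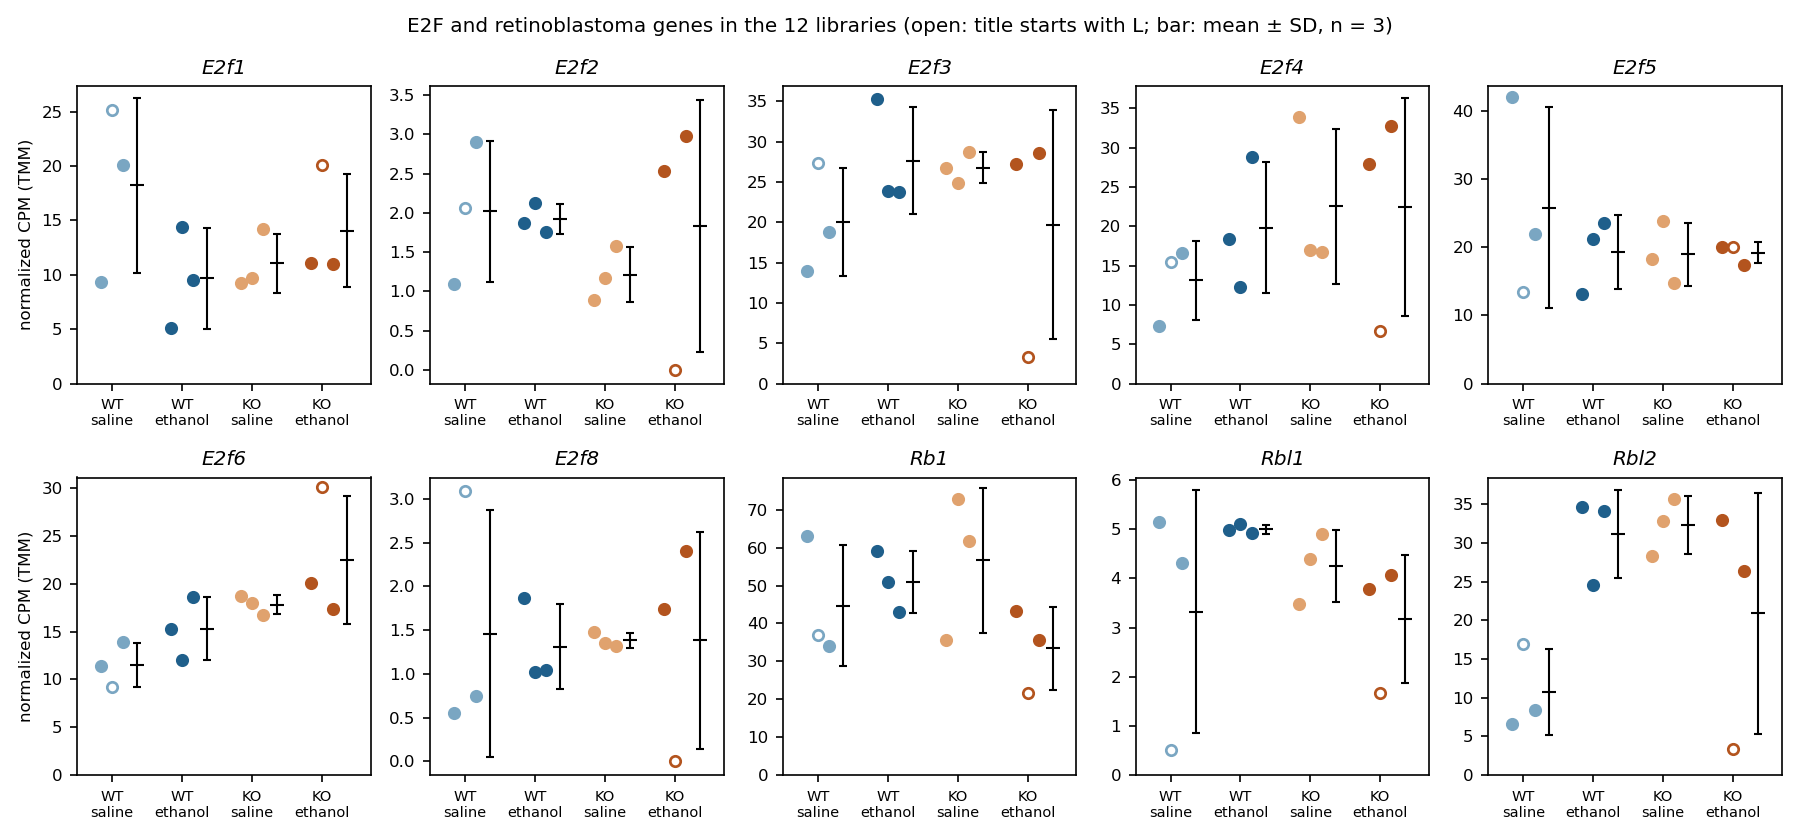
Normalized CPM of the 10 genes (a panel each) in the 3 libraries of each group, with group mean ± SD and with libraries whose title starts with L as open circles. Rbl2 is at 6.61 to 17.0 in WT saline and 24.6 to 35.7 in WT ethanol and KO saline libraries, and KO ethanol library 12 is the lowest of all for Rbl2, E2f3, E2f4 and Rb1 and at 0 for E2f2 and E2f8.

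In WT mice Rbl2 was at 31.1 ± 5.69 CPM (SD, n = 3) after ethanol and 10.7 ± 5.52 CPM (SD, n = 3) after saline. The difference was 1.59 ± 0.54 on the log2 scale (SE), or 3.01-fold, with an unadjusted p of 0.0107 and an adjusted p of 0.208 in edgeR. Over all 14739 genes tested, 18.3% passed an unadjusted p of 0.05 in this comparison, 22.5% passed an adjusted p of 0.30 and 0.0746% an adjusted p of 0.05. The groups did not overlap for Rbl2 alone of the 10 genes, and for 19.6% of all genes. An exact permutation test of the mean log2 CPM gave a two-sided p of 0.1, the smallest that 3 against 3 libraries allow.

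Under saline, KO cortex held 32.3 ± 3.72 CPM (SD, n = 3) of Rbl2. It exceeded WT saline by 1.64 ± 0.54 on the log2 scale (SE), or 3.12-fold, with an unadjusted p of 0.0088 and an adjusted p of 0.177 in edgeR. In this comparison 19.6% of all genes passed an unadjusted p of 0.05, 25.8% an adjusted p of 0.30 and 0.0543% an adjusted p of 0.05. Both differences were taken from the same 3 WT saline libraries, so a low value in those libraries enters each of them.

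Within KO mice Rbl2 differed between ethanol and saline by -0.51 ± 0.52 on the log2 scale (SE, adjusted p = 0.999 in edgeR), and by -0.12 without KO ethanol library 12. After ethanol, KO and WT mice differed by -0.45 ± 0.52 (SE, log2, adjusted p = 0.982 in edgeR), and by -0.07 without that library. The interaction, which is the ethanol response of KO mice minus that of WT mice, was -2.10 ± 0.75 on the log2 scale (SE), with an unadjusted p of 0.014 and an adjusted p of 0.259 in edgeR. In the interaction 15.2% of all genes passed an unadjusted p of 0.05 and 11.1% an adjusted p of 0.30, while no gene passed an adjusted p of 0.05, although 255 genes did so in DESeq2. Without library 12 the interaction of Rbl2 was -1.72 on the log2 scale, with an adjusted p of 0.477. The interaction missed the 0.30 level in 11 of 20 alternative fits.

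Rbl2 passed an adjusted p of 0.05 when the 2 libraries whose titles start with L were left out. The log2 difference was then 1.96 ± 0.32 (SE) for ethanol in WT mice (adjusted p = 0.00667 in edgeR) and 2.03 ± 0.33 (SE) for genotype under saline (adjusted p = 0.00421 in edgeR). With these 10 libraries, however, 21.5% and 25.3% of all genes passed an adjusted p of 0.05 in these comparisons, against 0.0746% and 0.0543% with all 12. Leaving out WT saline library 3 alone gave adjusted p-values of 0.047 and 0.0313 for Rbl2. DESeq2 gave adjusted p-values of 0.059 and 0.0451. Other fits raised the adjusted p above 0.30. For ethanol in WT mice it was 0.417 without WT saline library 1, 0.519 and 0.325 without WT ethanol library 4 or 14, 0.346 in edgeR with only the groups compared, and 0.359 and 0.39 with limma at a pseudocount of 1 or 0.1. For genotype under saline it was 0.436 without WT saline library 1, 0.357 and 0.432 without KO saline library 8 or 9, and 0.328 and 0.362 with limma. Across the 21 other ways of processing that could be fitted, these included, Rbl2 kept its direction and an unadjusted p under 0.05 in both comparisons, at 0.87 to 2.15 for ethanol in WT mice and 0.95 to 2.43 for genotype under saline on the log2 scale.

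**Figure D3:**
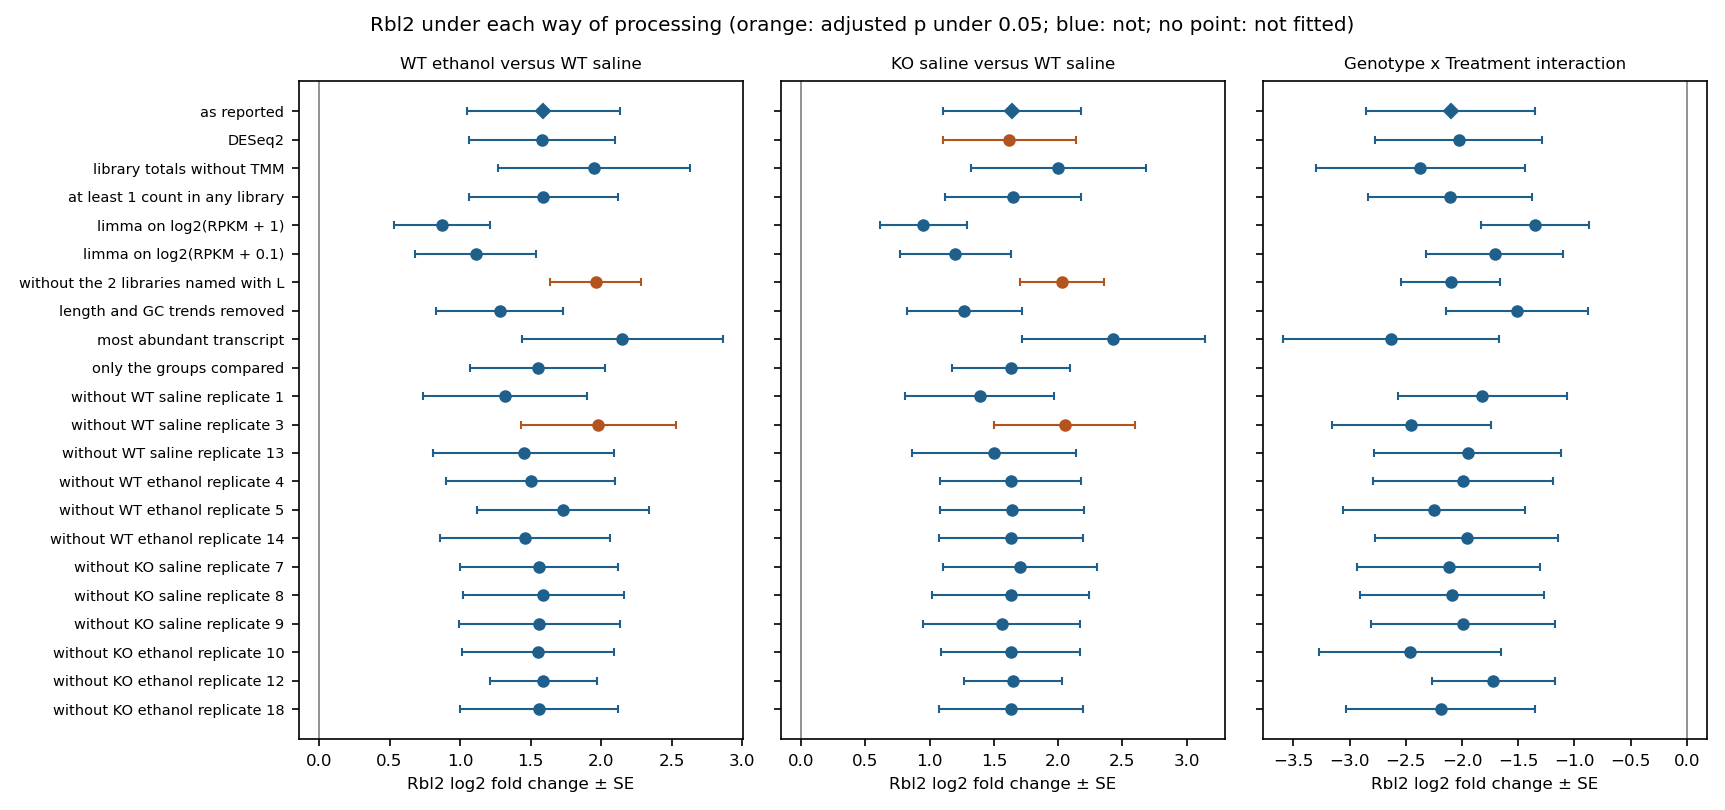
Log2 fold change ± SE of Rbl2 for ethanol in WT mice, genotype under saline and the interaction (panels), under each way of processing (rows). Points for the first 2 comparisons lie above 0 and those for the interaction below 0, and orange marks an adjusted p under 0.05, which was reached without WT saline library 3, without both libraries whose titles start with L, and in DESeq2 for genotype under saline.

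Other measures also differed for ethanol in WT mice or for genotype under saline, not always as Rbl2 did. Hemoglobin and Alas2 transcripts of erythroid cells were lower at an unadjusted p under 0.05 for 5 of 5 genes in both comparisons, where 8.36% and 10.5% of all genes were lower, and their summed level was 337 to 1320 CPM in WT saline, 50.2 to 145 in WT ethanol, 35.9 to 99.3 in KO saline and 29.1 to 766 CPM in KO ethanol libraries. The highest KO ethanol value was that of library 12. Its Rbl2 value was the lowest of all but rests on 2 counts, where 3 counts would have been 5.01 CPM. Markers of striatal neurons were higher for 4 of 5 genes after ethanol in WT mice, where 9.99% of all genes were higher, with summed levels of 103 to 737 CPM against 66.5 to 120 CPM in WT saline, and for none of 5 in KO saline. Of choroid plexus markers 2 of 5 were higher after ethanol in WT mice and 0 of 5 in KO saline, where 9.14% of all genes were higher. Their summed levels were 3.6 to 120 CPM in WT saline and 22.1 to 5020 CPM in WT ethanol libraries. In KO saline they were 24.4 to 2250 CPM and in KO ethanol libraries 0 to 2220 CPM. Transcript length also moved with direction, since genes higher after ethanol in WT mice at an unadjusted p under 0.05 had a median length of 4462 bases and lower ones of 1289 bases, against 2958 bases for all genes tested. For genotype under saline the medians were 4680 bases for higher and 1265 bases for lower genes. For ethanol in KO mice the order was the reverse, at 1108 bases for higher and 5034 bases for lower genes. Rbl2 has a length of 4760 bases averaged over its transcripts, and with the trends with length and GC content removed its differences were 1.28 and 1.27 on the log2 scale, with adjusted p-values of 0.194 and 0.229 in edgeR. The part of the erythroid, striatal and choroid plexus transcripts in the Rbl2 result was not tested. In bulk tissue, fewer cells of a type and less RNA per cell cannot be told apart.

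Rbl2 lies on chromosome 8 from 91070057 to 91123844, and its last 346 bases overlap Aktip, whose levels differed by 0.43 ± 0.35 (SE, log2) for ethanol in WT mice and 0.18 ± 0.34 for genotype under saline, with adjusted p-values of 0.503 and 0.8 in edgeR. The libraries were stranded, but the strand setting of the counting is not given in the sources used here.

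Rb1 encodes the retinoblastoma protein itself, the main partner of the activating E2Fs. It was at 63.0, 37.0 and 34.1 CPM in WT saline and 59.2, 50.9 and 42.9 CPM in WT ethanol libraries. In KO saline it was at 35.5, 72.7 and 61.8 CPM and in KO ethanol at 43.3, 21.7 and 35.5 CPM. The groups overlapped throughout, with differences of 0.19 ± 0.38 for ethanol in WT mice, 0.34 ± 0.38 for genotype under saline and -0.72 ± 0.39 for ethanol in KO mice (SE, log2; adjusted p = 0.818, 0.638 and 0.999 in edgeR). With the trends with length and GC content removed, the Rb1 difference for ethanol in KO mice was -0.11 ± 0.27 (SE, log2, unadjusted p = 0.68 in edgeR). Lpar6 and Mir687 lie within Rb1.

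Rbl1 encodes p107, the pocket protein of cycling cells. It was low, at 5.14, 0.514 and 4.31 CPM in WT saline, where the middle value is a single count. WT ethanol libraries were close together at 4.98, 5.1 and 4.92 CPM, KO saline libraries were at 3.47, 4.39 and 4.91 CPM, and KO ethanol libraries at 3.79, 1.67 and 4.06 CPM. After ethanol every KO library was below every WT library, as for 8.69% of all genes (12.7% were apart in either direction), and the log2 difference of -0.49 ± 0.59 (SE) did not pass the test (adjusted p = 0.982 in edgeR). For ethanol in WT mice the difference was 0.49 ± 0.58 and for genotype under saline 0.25 ± 0.57 (SE, log2), and neither passed an unadjusted p of 0.05 in edgeR.

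The activators E2f1, E2f2 and E2f3 drive S phase genes when released from the pocket proteins. E2f1 was at 9.37, 25.2 and 20.1 CPM in WT saline, 5.1, 14.4 and 9.49 CPM in WT ethanol, 9.29, 9.72 and 14.2 CPM in KO saline and 11.1, 20.1 and 11 CPM in KO ethanol libraries. WT saline libraries held the highest value and also one at 9.37 CPM, and the groups overlapped. Differences were -0.91 ± 0.49 for ethanol in WT mice and -0.71 ± 0.48 for genotype under saline (SE, log2; unadjusted p = 0.0832 and 0.166 in edgeR). For ethanol in WT mice E2f1 passed an unadjusted p of 0.05 when WT saline library 1 was left out (-1.24, adjusted p = 0.387 in edgeR). Its interaction was 1.16 ± 0.70 on the log2 scale (SE, unadjusted p = 0.116 in edgeR).

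E2f2 was at 0.885 to 2.98 CPM in 11 libraries and without a count in KO ethanol library 12, where 3 counts would have been 5.01 CPM, so its absence there was within the limit of depth. Its largest difference was 0.95 ± 0.63 on the log2 scale (SE, unadjusted p = 0.152 in edgeR), for ethanol in KO mice. E2f3 was at 14.0, 27.3 and 18.8 CPM in WT saline, 35.3, 23.9 and 23.7 CPM in WT ethanol and 26.7, 24.9 and 28.7 CPM in KO saline libraries. KO ethanol libraries were at 27.2, 3.34 and 28.6 CPM, the middle one again from 2 counts. Summed over its transcripts, E2f3 differed by 0.48 ± 0.49 for ethanol in WT mice and 0.43 ± 0.49 for genotype under saline (SE, log2; adjusted p = 0.609 and 0.642 in edgeR). Without the 2 libraries whose titles start with L, the former was 0.67 ± 0.30 (SE, log2), with an adjusted p of 0.128 in edgeR.

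E2f4 and E2f5 act mainly as repressors with the pocket proteins, and E2f6 represses without them, through Polycomb partners. E2f4 was at 7.35, 15.4 and 16.6 CPM in WT saline, 18.4, 12.3 and 28.8 CPM in WT ethanol, 33.9, 17.0 and 16.7 CPM in KO saline and 27.9, 6.69 and 32.8 CPM in KO ethanol libraries. E2f6 was at 11.4, 9.26 and 13.9 CPM in WT saline, 15.3, 12.0 and 18.6 CPM in WT ethanol, 18.7, 18.0 and 16.8 CPM in KO saline and 20.1, 30.1 and 17.4 CPM in KO ethanol libraries. Under saline every KO library exceeded every WT library for E2f4, E2f6 and Rbl2, 3 of the 10 genes, against 12.9% of all genes (22.9% were apart in either direction). The E2f4 groups were barely apart, at 16.6 CPM for the highest WT and 16.7 CPM for the lowest KO library. The log2 differences under saline were 0.78 ± 0.53 for E2f4 and 0.61 ± 0.36 for E2f6 (SE, unadjusted p = 0.162 and 0.11 in edgeR).

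Averaged over saline and ethanol, E2f6 was higher in KO than in WT libraries by 0.56 ± 0.26 on the log2 scale (SE), with an unadjusted p of 0.0453 and an adjusted p of 0.623 in edgeR. It was the only one of the 10 genes at an unadjusted p under 0.05 for the main effect of Genotype, where 7.67% of all genes were. It lost that call in 9 of the 12 fits that left out a single library, where the unadjusted p ran from 0.0345 to 0.107 in edgeR. E2f5 was at 13.1 to 42.1 CPM, with its highest value in WT saline library 1, and its differences of -0.44 ± 0.43 and -0.46 ± 0.42 (SE, log2) for ethanol in WT mice and genotype under saline did not pass the test (adjusted p = 0.59 and 0.563 in edgeR). It overlaps 1810022K09Rik.

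E2f8, an atypical E2F that represses E2F targets late in S phase without a DP partner, was at 0.551 to 3.09 CPM in 11 libraries and without a count in KO ethanol library 12. Its highest value, in WT saline library 3, was 6 counts. Log2 differences ranged from 0.16 to 0.43 between pairs of groups, with SEs of 0.70 to 0.75, so that this depth could not have shown a small difference.

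**Figure D4:**
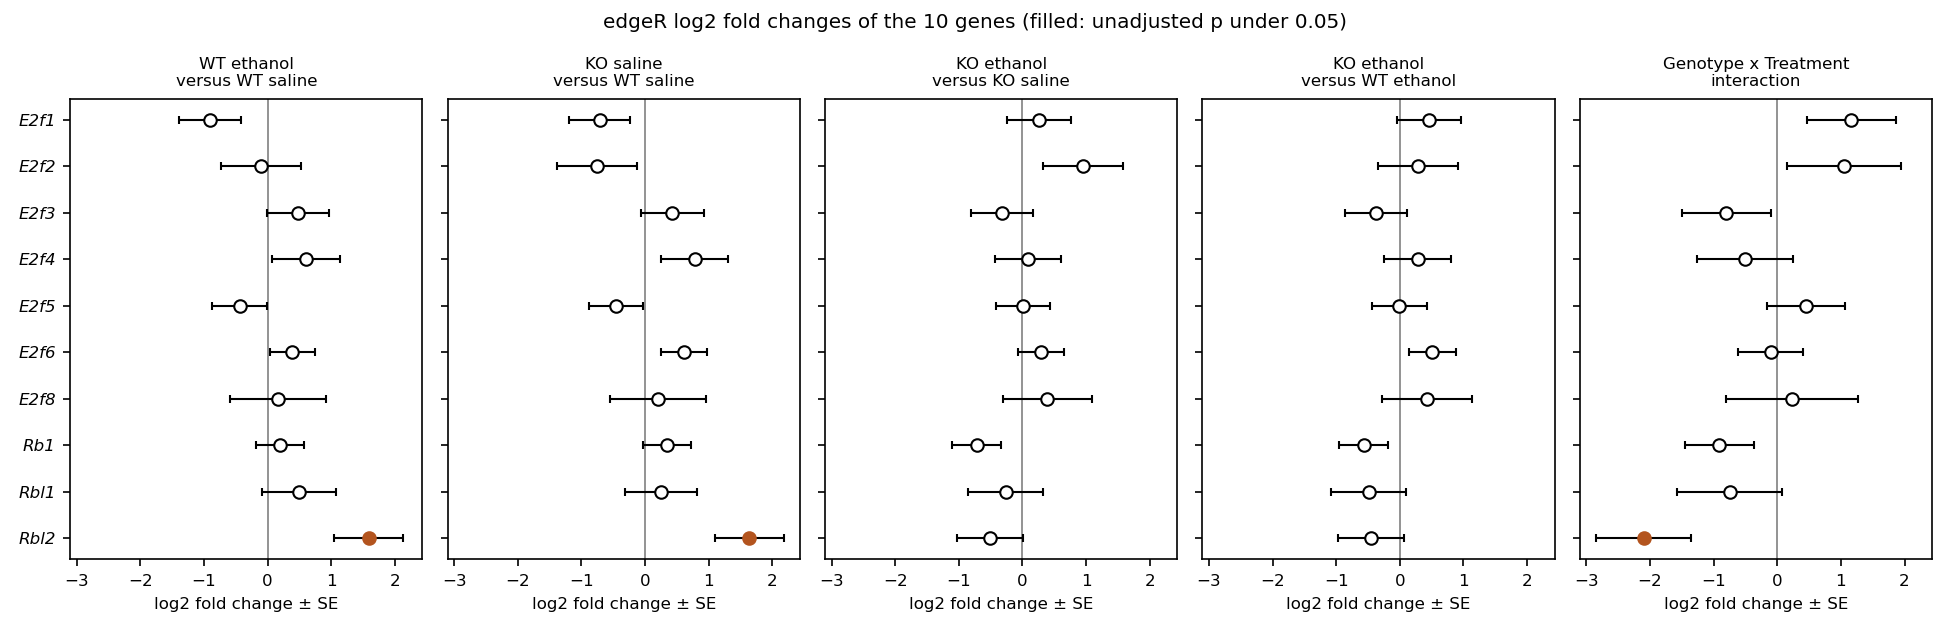
Log2 fold change ± SE from edgeR for the 10 genes (rows) in 4 comparisons and the interaction (panels), filled where the unadjusted p is under 0.05. Only Rbl2 is filled, at 1.59, 1.64 and -2.10.

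As a group, 7 of the 10 genes had a positive difference for ethanol in WT mice and 7 of 10 for genotype under saline, with medians of 0.29 and 0.30 on the log2 scale. Over all genes 52.7% and 52.0% were positive, with medians of 0.06 and 0.04. For ethanol in KO mice the 10 differences ran from -0.72 for Rb1 to 0.95 for E2f2, and none passed an unadjusted p of 0.05, against 3.15% of all genes. Between KO and WT mice after ethanol they ran from -0.57 for Rb1 to 0.51 for E2f6, and none passed either, against 3.24% of all genes. For the main effect of Treatment none of the 10 passed an unadjusted p of 0.05, against 7.09% of all genes, and Rbl2 was at 0.54 ± 0.37 on the log2 scale (SE, adjusted p = 0.744 in edgeR). Without the 2 libraries whose titles start with L, Rbl2 passed an adjusted p of 0.05 in both main effects, at 0.91 for Treatment (adjusted p = 0.0361 in edgeR) and 0.98 for Genotype (adjusted p = 0.0161 in edgeR). In those 10 libraries 8.22% and 16.2% of all genes passed.

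The 3 RefSeq transcripts of Rbl2 all had positive differences in both comparisons. NM_011250, the longest at 4925 bases, was at 1.44, 2.8 and 4.49 CPM in WT saline libraries, 15.5, 7.59 and 16.4 CPM in WT ethanol and 11.6, 16.4 and 19.7 CPM in KO saline libraries, with no overlap between WT saline and either group. Its log2 differences were 2.16 ± 0.75 for ethanol in WT mice and 2.43 ± 0.75 for genotype under saline (SE, unadjusted p = 0.0121 and 0.00612, adjusted p = 0.191 and 0.151 in edgeR). NM_001282001 differed by 1.8 ± 0.97 and 2.23 ± 0.98 (SE, log2, adjusted p = 0.339 and 0.241 in edgeR), and NM_001282000 by 1.08 ± 0.62 and 0.56 ± 0.61 (SE, log2, adjusted p = 0.36 and 0.643 in edgeR). NM_001282000 was at most 10.3 CPM in WT saline and at least 10.5 CPM in WT ethanol libraries, without overlap, and overlapped between KO saline and WT saline. Whether the transcripts differed from each other was not tested. All 3 start and end at the same bases, so the counts between them rest on how shared reads were divided. In WT saline library 1, NM_001282000 and NM_011250 took 77.7 and 21.2% of Rbl2 counts, against 61.0 and 16.6% in WT saline library 3. The proportion between these transcripts was thus nearly the same in both, as in KO ethanol library 12. Whether a fixed division set the NM_011250 values of these WT saline libraries was not tested.

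E2f3 is known for an upstream promoter that is tied to cycling and a downstream one that is active in resting cells. NM_010093, from the upstream start shown above, was at 1.95, 0.141 and 1.63 CPM in WT saline, 10.8, 6.19 and 5.39 CPM in WT ethanol and 5.98, 4.16 and 6.0 CPM in KO saline libraries. All WT saline libraries were thus below all libraries of either other group. In KO ethanol it was at 1.71, 0.0171 and 5.16 CPM. Its log2 differences were 2.50 ± 0.85 for ethanol in WT mice and 2.02 ± 0.84 for genotype under saline (SE, unadjusted p = 0.0107 and 0.0304, adjusted p = 0.185 and 0.22 in edgeR), and its interaction was -3.42 ± 1.17 (SE, log2, unadjusted p = 0.0109, adjusted p = 0.225 in edgeR). NM_001289920, from the downstream start, was at 12.4 to 27.0 CPM in WT saline, 17.5 to 24.4 CPM in WT ethanol and 20.5 to 22.6 CPM in KO saline libraries, with differences of 0.08 ± 0.52 and 0.16 ± 0.52 (SE, log2, adjusted p = 0.948 and 0.895 in edgeR). The genotype difference no longer passed an unadjusted p of 0.05 without WT saline library 3 or 13 or KO saline library 7 or 9 (1.60 to 2.17 on the log2 scale, unadjusted p from 0.0555 to 0.0627 in edgeR). It did not pass either with the trends with length and GC content removed (1.42 on the log2 scale, unadjusted p of 0.0967 in edgeR). NM_010093 took 0.521 to 13.6% of E2f3 counts in WT saline and 16.9 to 30.7% in WT ethanol and KO saline libraries. The lowest share was that of WT saline library 3, where NM_010093 held 0.276 estimated counts. KO ethanol library 12 had the same share of 0.521% from 0.0104 estimated counts.

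**Figure D5:**
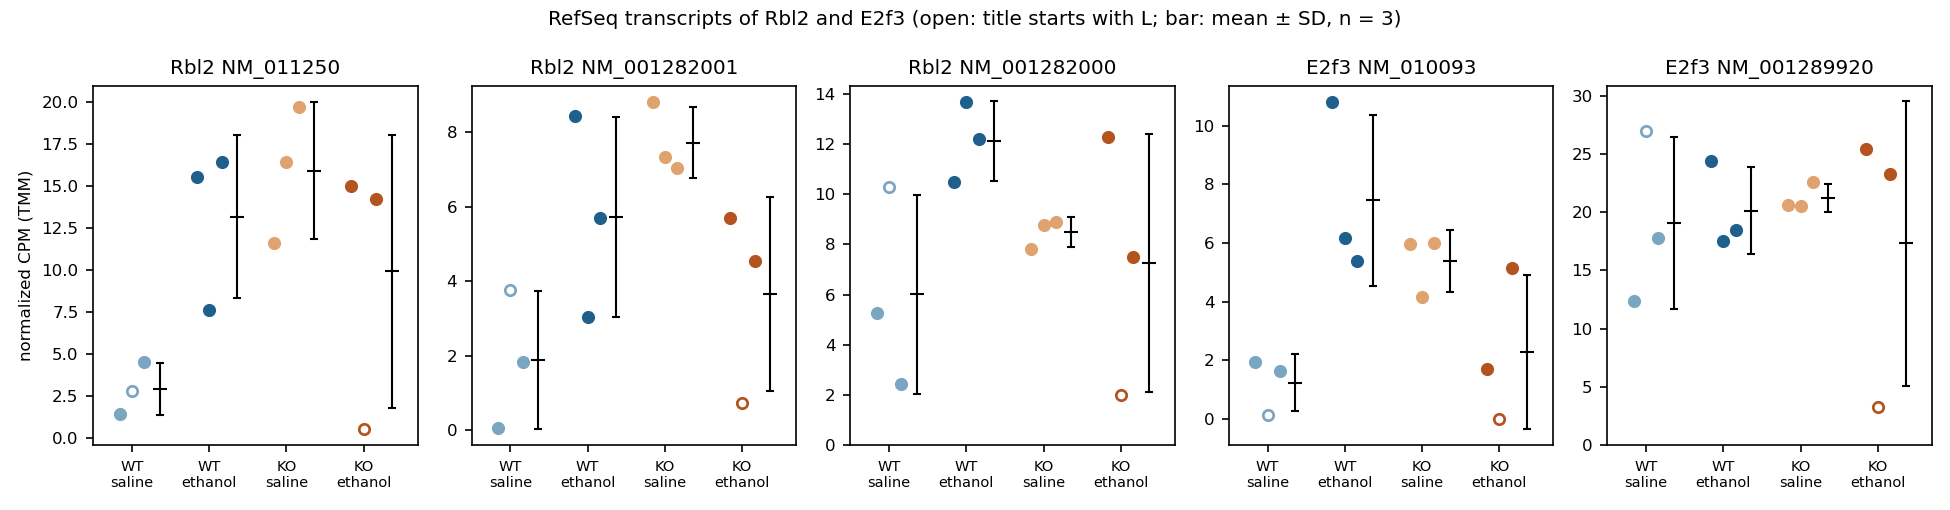
Normalized CPM of the 3 RefSeq transcripts of Rbl2 and the 2 of E2f3 (panels) in each library, with group mean ± SD and open circles for libraries whose title starts with L. NM_011250 and NM_010093 are lower in all 3 WT saline libraries than in any WT ethanol or KO saline library, while NM_001289920 overlaps between these groups.

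Of the 16 transcripts of the 10 genes that could be tested, 2 passed an unadjusted p of 0.05 for ethanol in WT mice, 3 for genotype under saline and 2 for the interaction, against 18.2%, 19.1% and 15.3% of all 21715 transcripts tested. None passed an adjusted p of 0.05. In WT saline library 3 and KO ethanol library 12 the split of counts between transcripts was the same to 0.1% for Rbl2, E2f3 and Rbl1, and for E2f1 it was the same also in WT saline library 1. E2f6 had equal shares in 4 libraries (WT saline 1 and 3, KO ethanol 10 and 12) and E2f2 in 6 of the 11 libraries with counts. For Rbl2, KO ethanol library 12 held 2 counts in all. How the quantification divided shared reads is not given in the sources used here. Without WT saline library 3 and KO ethanol library 12, NM_010093 differed by 2.04 for ethanol in WT mice and 1.58 for genotype under saline on the log2 scale (unadjusted p = 0.00766 and 0.0269 in edgeR).

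The genes around the E2F switch were read from 3 lists. Their values and those of the markers come from the fit in which the trends with length and GC content were left in. Of 8 dimer partners and MuvB complex genes, which build E2F dimers and the DREAM complex, 0 passed an unadjusted p of 0.05 in edgeR in any of the 4 comparisons or the interaction. The shares of all genes were 18.3% for ethanol in WT mice, 3.15% for ethanol in KO mice, 19.6% and 3.24% for genotype under saline and after ethanol, and 15.2% for the interaction. The list had a median log2 difference of -0.03 for ethanol in WT mice against 0.06 over all genes. Rbbp4, a histone-binding subunit, was at -0.94 ± 0.46 and Tfdp2, a DP partner, at 0.73 ± 0.40 for ethanol in WT mice (SE, log2, unadjusted p = 0.0588 and 0.0867 in edgeR). For Lin37, which the DREAM complex needs for repression, the difference was -0.59 ± 0.58 (SE, log2).

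Of 14 kinases, cyclins and CDK inhibitors tested, which set the phosphorylation of the pocket proteins, 1 was higher and 3 were lower at an unadjusted p under 0.05 for ethanol in WT mice, where 9.99% of all genes were higher and 8.36% lower. Cdkn2d, the CDK4/6 inhibitor p19, differed by -0.96 ± 0.38, Cdk4 by -0.76 ± 0.35 and cyclin D2 (Ccnd2) by 1.29 ± 0.54 (SE, log2; adjusted p = 0.22, 0.259 and 0.235 in edgeR). Under saline 1 was higher and 2 were lower in KO mice, where 9.14% of all genes were higher and 10.5% lower, and Ccnd2 was at 1.44 ± 0.54 and Cdkn2d at -0.87 ± 0.38 (SE, log2, adjusted p = 0.191 and 0.23 in edgeR). In the interaction Ccnd2 was at -2.18 ± 0.76 and Cdkn2d at 1.21 ± 0.53 (SE, log2, adjusted p = 0.252 and 0.312 in edgeR). Cdkn1a itself differed by 0.44 ± 0.52 for ethanol in WT mice and -0.68 ± 0.53 for genotype under saline (SE, log2, adjusted p = 0.668 and 0.48 in edgeR).

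Of 20 S phase genes that E2Fs regulate, 0 were higher and 3 lower at an unadjusted p under 0.05 both for ethanol in WT mice and for genotype under saline, with list medians of -0.38 and -0.14 on the log2 scale. Over all genes 9.99% were higher and 8.36% lower for ethanol in WT mice, and 9.14% and 10.5% for genotype under saline, so 3 of 20 was near the background. The 3 genes were Rfc4, a clamp loader subunit, at -1.45 ± 0.49 and -1.34 ± 0.49, the sliding clamp Pcna at -1.37 ± 0.57 and -1.32 ± 0.57, and thymidylate synthase (Tyms) at -1.12 ± 0.50 and -1.23 ± 0.50 (SE, log2, adjusted p from 0.185 to 0.253 in edgeR). For ethanol in KO mice 1 of the 20 was higher, where 3.15% of all genes passed in either direction. In the interaction the smallest p of the list was that of thymidine kinase (Tk1), at 1.9 ± 0.85 on the log2 scale (SE, unadjusted p = 0.0423, adjusted p = 0.316 in edgeR). Their summed level was 210 to 744 CPM in WT saline and 284 to 310 CPM in WT ethanol libraries, so that the WT saline libraries spanned the WT ethanol range on both sides. Among 5 markers of cycling cells, 2 were higher (Top2a and Mki67, at 1.81 ± 0.53 and 2.04 ± 0.69) and 0 were lower at an unadjusted p under 0.05 in KO than in WT mice under saline (SE, log2, adjusted p = 0.176 and 0.177 in edgeR), where 9.14% of all genes were higher. The other 3 had negative differences, of -1.15 ± 0.55 for Cdk1, -0.60 ± 0.57 for Aurkb and -0.44 ± 0.67 for Ccnb1 (SE, log2), and the list median was -0.44. For ethanol in WT mice 0 of these 5 markers were higher and 1 was lower (Cdk1), where 8.36% of all genes were lower. For ethanol in KO mice 0 were higher and 1 was lower (Top2a), where 3.15% of all genes passed in either direction. In the interaction 2 were negative (Top2a and Mki67) and 0 positive, where 15.2% of all genes passed.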

How the data were processed

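RNA was sequenced from 12 libraries of P7 somatosensory cortex. The authors dropped reads of low quality, aligned the rest to mm10 with Bowtie2 in TopHat and quantified RefSeq transcripts in Partek. The deposited estimated counts per transcript contain fractions, since reads shared by transcripts were divided. The deposited RPKM values appear quantile-normalised: 99.7% of 20504 ranks were equal within 0.1% across libraries. Part of the cortex samples were laser-dissected and part hole-punched, and the sources used here do not assign the method to libraries.

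Counts were summed per symbol and rounded. In edgeR 4.0.16 (R 4.3.3), the default low-count filter kept 14739 symbols (21715 transcripts), including all 10 genes described. Quasi-likelihood models with TMM factors and 1 mean per group gave two-sided tests of 7 contrasts, Benjamini-Hochberg adjusted over all symbols (transcripts) tested. The common biological coefficient of variation was 0.451. SE was derived from the F statistic. Alternatives used DESeq2 1.42.0, limma 3.58.1 on log2(RPKM + 1 or + 0.1), other filters and scaling, and libraries left out. Of genes tested, 99.6% had a length and GC content. The code was tested on simulated data. Groups came from the sample labels, and replicate numbers are library numbers. The 10 genes were named with their value in each library, or with the range for E2f2, E2f5 and E2f8. From each context list came the 3 genes with the smallest p for ethanol in WT mice. The gene with the smallest p in the interaction was added. Members and lists were chosen with earlier results of these data known.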

Additional observations from a re-analysis of the deposited data

Results flagged for a closer look

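The ethanol response of Rbl2 differed between genotypes at an unadjusted p under 0.05 in the test of the difference itself. The KO response minus the WT response was -2.10 on the log2 scale (unadjusted p = 0.014, adjusted p = 0.259 in edgeR), from 1.59 in WT and -0.51 in KO mice. It ranged from -2.46 to -1.72 when single libraries were left out, the smallest in size without KO ethanol library 12. In the other ways of processing the Rbl2 interaction ran from -2.63 to -1.35. With the trends with length and GC content removed it was -1.51 (unadjusted p = 0.0309, adjusted p = 0.54 in edgeR).

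The Rbl2 transcript NM_011250 showed the same kind of difference, at -2.71 on the log2 scale (unadjusted p = 0.0191, adjusted p = 0.255 in edgeR), and is part of the sum.

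The E2f3 transcript NM_010093, from the upstream start, differed by -3.42 on the log2 scale (unadjusted p = 0.0109, adjusted p = 0.225 in edgeR), from 2.50 in WT and -0.92 in KO mice. It ranged from -4.52 to -2.94 when single libraries were left out, the largest in size without KO ethanol library 18. Outside that range, it was -2.7 without the 2 libraries whose titles start with L. With the trends with length and GC content removed it was -2.67 (unadjusted p = 0.0319 in edgeR). For 15.2% of genes and 15.3% of transcripts the interaction passed an unadjusted p of 0.05, and none of these 3 differences passed an adjusted p of 0.05.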

How the results depend on the processing

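Depth limited E2f2, E2f8, Rbl1 and every value of KO ethanol library 12. No paired analysis was possible because the 4 groups share no replicate number. Transcript alternatives and other scales of the permutation test were chosen after seeing the data. Causes were not tested. Library totals without TMM moved the median of all genes from 0.06 to 0.49 (log2) for ethanol in WT mice, from 0.04 to 0.49 for genotype under saline and from -0.11 to -0.52 for the interaction, and raised the share of higher calls from 54.4 to 89.4% and from 46.6 to 84.3%. Genes at an adjusted p under 0.05 numbered 11 and 8 in edgeR with all libraries, 488 and 717 in DESeq2 and 3220 and 3782 without the 2 libraries whose titles start with L.

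The number of the 10 genes at an unadjusted p under 0.05 for ethanol in WT mice was 1, and became 2 without TMM, with limma at either pseudocount and without the L libraries, 0 with at least 10 counts in every library (4 of the 10 tested, without Rbl2), and 1 to 2 with single libraries left out. For genotype under saline it was 1, and became 2 without TMM (Rbl2 and E2f6), 3 with length and GC trends removed (Rbl2 and E2f4 among them) and 2 with the most abundant transcript. With at least 10 counts in every library it stayed at 1, but the gene was E2f6, since Rbl2 was not tested there. For the interaction it was 1, and became 2 without TMM, 0 with at least 10 counts, 2 with limma on log2(RPKM + 1) and 1 to 3 with libraries left out. For ethanol in KO mice it was 0, and 0 to 1 with libraries left out. For the main effect of Treatment it was 0, and became 1 without the L libraries and 0 to 1 with libraries left out. For Genotype it was 1, and became 0 with at least 1 count in any library and with limma at either pseudocount, 2 without the L libraries and 0 to 1 with libraries left out.

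At an adjusted p under 0.05 the number was 0 throughout, and became 1 (Rbl2) without the L libraries for ethanol in WT mice, genotype under saline, Treatment and Genotype, 1 in DESeq2 for genotype under saline, and 0 to 1 with libraries left out in the first 2. Transcripts at an unadjusted p under 0.05 were 4 without the L libraries (2 with all) for ethanol in WT mice, and 1 with length and GC trends removed for the interaction. With libraries left out they were 2 to 4, 1 to 4 for genotype under saline (1 without KO saline library 7 or 9) and 2 to 3 for the interaction.

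Log2 differences of some genes changed sign, none of them past an unadjusted p of 0.05 in edgeR with all libraries. For ethanol in WT mice E2f2 was 0.30 and E2f5 0.15 without TMM, E2f5 0.05 with length and GC trends removed, E2f8 -0.18 and -0.39 with limma, and Rb1 -0.01 without the L libraries. With libraries left out E2f2 was -0.44 to 0.37, E2f5 -0.77 to 0.07 and E2f8 -0.28 to 0.94. For genotype under saline E2f5 was 0.13 without TMM, E2f8 -0.12 and -0.19 with limma, Rbl1 -0.02 with limma on log2(RPKM + 1) and -0.21 without the L libraries, and with length and GC trends removed E2f5 was 0.07, Rb1 -0.01 and Rbl1 -0.07. With libraries left out E2f5 was -0.78 to 0.06, E2f8 -0.22 to 1.01 and Rbl1 -0.18 to 0.57. For ethanol in KO mice E2f2 went from 0.95 to -0.15 with limma on log2(RPKM + 0.1), and E2f8 from 0.39 to -0.53, to -0.08 with limma on log2(RPKM + 1) and to between -0.01 and 0.59 with libraries left out. Between KO and WT mice after ethanol E2f8 went from 0.43 to -0.02 and -0.33 with limma.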
